A study of Homo sapiens with 4 samples.

Results

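The HOX cluster genes of 2 human non-small cell lung cancer lines were examined, taking every probe set that the array annotation assigned to exactly 1 gene with a symbol of HOXA, HOXB, HOXC or HOXD followed by a number. This gave 28 genes on 44 probe sets, of 19775 genes in all, and no filter on signal was applied. Each gene was represented by the probe set with the highest mean signal over the 4 arrays, a choice that used neither comparison. All 10 genes of the HOXB cluster on chromosome 17, all 9 of the HOXC cluster on chromosome 12 and 8 of the 9 of the HOXD cluster on chromosome 2 were measured, counting genes as RefSeq lists them. Of the HOXA cluster on chromosome 7, only HOXA2 was covered, and the other HOXA genes and HOXD3 were not analysed here.

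HOX genes encode homeodomain transcription factors that give cells their position along the body axis. They lie in clusters, and low-numbered genes, at one end of a cluster, are active nearer the head and earlier in development than high-numbered genes at the other end. Genes with the same number in different clusters are paralogs. Trithorax group proteins keep the clusters active and Polycomb group proteins keep them silent, and adult cells and tumours often retain the HOX pattern of their tissue of origin. In developing lung, HOX genes of the low and middle numbers are the ones best known to act.

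H1299 cells, from a lymph node metastasis of a lung carcinoma, and A549 cells, from a lung adenocarcinoma, were each transfected by lipid reagent with siRNA against hMOF or with scramble siRNA. hMOF is the histone H4 acetyltransferase encoded by KAT8. The series held 1 array for each of the 4 groups: H1299 with hMOF siRNA, H1299 with scramble siRNA, A549 with hMOF siRNA and A549 with scramble siRNA. Neither the siRNA sequence nor the time after transfection is stated in the labels, and each group stands for a single established line in culture. With no second array in any group, the siRNA comparison was repeated only across the lines and the line comparison only across the siRNAs.

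The values are linear MAS5 signals per probe set, with array medians of 73.8 and 73.3 in H1299 and 75.4 and 75.3 in A549 (hMOF siRNA, scramble). Log2 signals correlated at r = 0.9826 between the H1299 arrays and 0.9881 between the A549 arrays, and at 0.8889 to 0.9001 between lines. KAT8 signal was 61.8 with hMOF siRNA, against 241 with scramble, in H1299, and 106 with hMOF siRNA, against 402 with scramble, in A549. The 61.8 lay within the silent range defined below. KAT8 passed the test over both lines (limma adjusted p = 0.0317), a call that was lost with no offset (0.0679), with an offset at the 40th percentile (0.0529) and without a term for cell line (1.0). These values are of the brighter of 2 KAT8 probe sets, with a mean siRNA difference of −1.624 log2 (signal plus an offset). With both probe sets averaged it was smaller, −0.954, and still called (limma adjusted p = 0.0407). The groups follow the source names, and KAT8 was lower on the arrays so named for hMOF siRNA, whereas the treatment tag of 2 arrays names the other siRNA. The epithelial markers CDH1, EPCAM, KRT7, KRT8, KRT18 and KRT19 were lower in H1299, 6 of 6, with a summed signal of 2821 and 3740 in H1299, against 26546 and 28772 in A549. Their part in the line differences of HOX genes was not tested. Of the mesenchymal markers VIM and ZEB1 were higher and CDH2 and FN1 lower in H1299, and of 7 alveolar markers 0 were called. The lung lineage factor NKX2-1 lay between 60.8 and 72.9 on all arrays, within the silent range defined next. In MAS5 signals of whole cultures, fewer expressing cells and less RNA per cell cannot be told apart.

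Which HOX genes were active was asked first. No detection calls were used, so the 82 olfactory receptor genes measured, a family mostly silent outside the nose, marked the range of silent genes. The 95th percentile of their signals was 81.7 and 87.5 on the H1299 arrays and 84.3 and 92.7 on the A549 arrays (hMOF siRNA, scramble), and a gene at or under it is called within the silent range of that array. By this measure 19 and 20 of the 28 HOX genes were above the range in H1299, against 18 and 18 in A549. A set of 15 genes was above it on all 4 arrays. Some passed narrowly on the H1299 scramble array, where the limit was 87.55, such as HOXD8 at 87.68 and HOXC11 at 89.76. HOXA2, HOXC12, HOXD4, HOXD12 and HOXD13 were within it on all 4. HOXB2, HOXB4 and HOXC10 were above it on both H1299 arrays and no A549 array, and HOXD10 and HOXD11 on both A549 arrays and no H1299 array. The share of all genes above this range was not counted. These counts therefore describe the HOX genes only and do not set them apart from other genes.

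**Figure D1:**
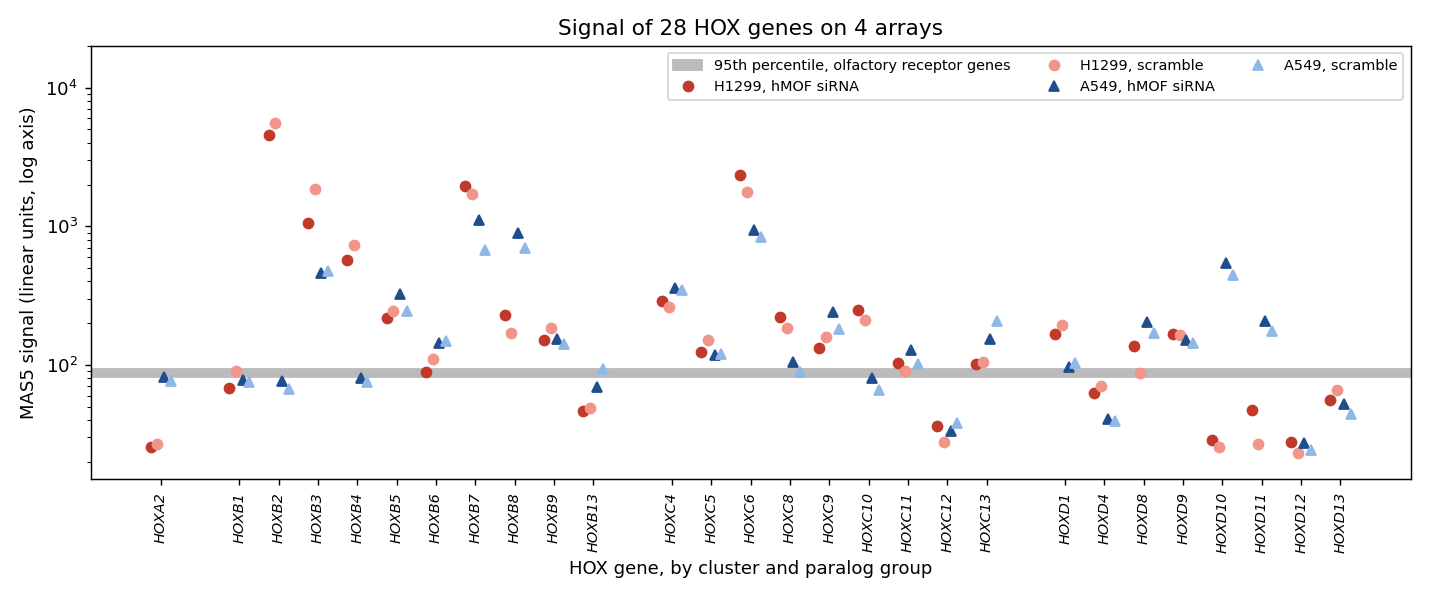
MAS5 signal (linear units on a log axis) of the 28 HOX genes on each array, ordered by cluster and number, with H1299 as circles and A549 as triangles, and hMOF siRNA in the darker shade. The grey band spans the 95th percentiles of 82 olfactory receptor genes on the 4 arrays, 81.7 to 92.7, and the separation of circles from triangles is widest at HOXB2 and HOXD10.

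The lines were then compared. Of the 28 HOX genes, 17 differed between H1299 and A549 over both siRNAs (limma, terms for line and siRNA, Benjamini-Hochberg over all 19775 genes, threshold 0.05), 9 higher and 8 lower in H1299. The same test called 17.6% of all genes higher and 19.5% lower in H1299, 37.1% together, against 60.7% of the HOX genes. The median absolute difference was 0.578 on the log2(signal + 29.06) scale for the HOX genes and 0.234 for all genes, where 29.06 is an offset that damps ratios of dim genes. The called HOX genes ran both ways, and their median signed difference was 0.012, against −0.025 for all genes. Centring each array on its median moved the all-gene median by 0.113, to 0.088, and left the HOX calls at 9 higher and 7 lower, with HOXB6 no longer called. Both called and 2-fold were 9 HOX genes, 6 higher and 3 lower, against 14.3% of all genes. Without a test, 5 HOX genes were 2-fold higher and 4 lower in H1299 on the hMOF siRNA arrays, against 6.82% and 8.30% of all genes, and 6 and 3 on the scramble arrays, against 6.33% and 7.78%. The labels do not state separate cultures, and no group has a second array. The 1 residual degree of freedom is the disagreement of a gene's line difference between the siRNAs. The p-values and standard errors measure that disagreement, moderated over all genes, and not a spread of replicates. It may be technical or an siRNA response that differs between the lines, which cannot be told apart here.

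Among the low-numbered genes, paralog groups 1 to 4, 5 of 8 were higher and 1 was lower in H1299, 6 of 8 called, against 37.1% of all genes. HOXB2, which patterns the hindbrain, had signals of 4581 and 5586 in H1299 with hMOF siRNA and scramble, against 77.1 and 66.4 in A549. The H1299 signals were thus far above both A549 signals, which lay within the silent range, and the difference was at least 57.2-fold (limma adjusted p = 7.11e-05). A fold written "at least" sets the mean signal of the bright line against the upper limit of the silent range in the other line. HOXB4, known for expanding blood stem cells, had 573 and 738 in H1299, against 80.5 and 75.8 in A549, at least 7.35-fold higher in H1299 (limma adjusted p = 0.000371). Their neighbour HOXB3 was well above the silent range in both lines, with 1055 and 1861 in H1299 and 461 and 472 in A549. Its difference was 1.53 ± 0.20 on the log2 scale (SE; limma adjusted p = 0.00508), and its second, dimmer probe set gave 0.458. HOXB1, at the end of the cluster beside HOXB2, had 67.8 and 90.4 in H1299 against 77.2 and 74.9 in A549, with overlapping signals and no call (limma adjusted p = 0.871).

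In the HOXD cluster, HOXD1 had 167 and 194 in H1299, against 96.5 and 102 in A549, and was higher by 0.70 ± 0.10 log2 (SE; limma adjusted p = 0.006). Its second probe set lay between 6.40 and 9.11 on the 4 arrays and gave −0.056. HOXD4 was also called higher in H1299 (limma adjusted p = 0.0203), at 63.1 and 70.6 against 40.5 and 39.4 in A549. All 4 of these signals were within the silent range, so no fold is given, and the call was lost when the probe sets of the gene were averaged (0.0987). HOXA2, which patterns the second branchial arch, was called lower in H1299, at 25.7 and 26.9 against 82.2 and 75.9 in A549 (limma adjusted p = 0.00228), again within the silent range throughout. HOXC4 missed the threshold, at 287 and 263 in H1299 against 360 and 346 in A549 (limma adjusted p = 0.0525).

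The middle of the clusters, paralog groups 5 to 8, held genes of high signal in both lines, with 3 of 8 higher and 3 lower in H1299, 6 of 8 called, against 37.1% of all genes. HOXC6, a gene of the thoracic region, had 2345 and 1755 in H1299, against 947 and 831 in A549, a difference of 1.17 ± 0.11 log2 (SE; limma adjusted p = 0.00179). HOXB7 had 1940 and 1704 in H1299, against 1110 and 678 in A549, and differed by 1.04 ± 0.15 (SE; limma adjusted p = 0.00657), a call lost with no replicate block (0.0552). Its 3 probe sets gave differences between 0.991 and 1.05. Of the 13 HOX genes with several probe sets, 8 had the same sign in all of them. HOXC8 had 221 and 183 in H1299, against 105 and 88.1 in A549, the last of these within the silent range, and was higher by 0.88 ± 0.09 (SE; limma adjusted p = 0.00274).

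HOXB8 ran the other way from HOXB7, its neighbour in the cluster. It had 227 and 170 in H1299, against 895 and 701 in A549, and was lower in H1299 by −1.86 ± 0.09 log2 (SE; limma adjusted p = 0.000371). Its other probe set was within the silent range on all arrays, between 32.9 and 43.2. HOXD8 had 136 and 87.7 in H1299, against 202 and 171 in A549, a difference of −0.63 ± 0.12 (SE; limma adjusted p = 0.0137), a call lost with no replicate block (0.107). HOXB6 was called lower in H1299 on its brighter probe set, with 88.2 and 111 against 144 and 148 (−0.45 ± 0.11, SE; limma adjusted p = 0.031). The second HOXB6 probe set gave 0.192, the opposite sign, and the average of both was not called (0.35), nor was the gene with no replicate block (0.0731). HOXB5, which acts in lung branching, had 219 and 245 in H1299 and 324 and 246 in A549, almost equal on the scramble arrays, and was not called (limma adjusted p = 0.269). HOXC5, at 117 to 151 over the 4 arrays, was not called either (0.309).

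Among the high-numbered genes, paralog groups 9 to 13, 1 of 12 was higher and 4 were lower in H1299, and 7 were not called. The share called, 41.7%, was near the 37.1% of all genes. HOXD10 had 28.6 and 25.6 in H1299, against 545 and 448 in A549, at least 5.84-fold lower in H1299 (limma adjusted p = 0.000122). HOXD11, its neighbour, had 47.1 and 27.0 in H1299, against 208 and 175 in A549, at least 2.26-fold lower (limma adjusted p = 0.000613). Both genes, which act in the limbs and the posterior axis, were within the silent range in H1299 only. The 3 HOXD10 probe sets were all lower in H1299, with differences of −3.22, −1.59 and −0.667. HOXC10, a gene of the hindlimb region, was the one that was higher in H1299, at 250 and 211 against 79.9 and 65.8 in A549, at least 2.60-fold (limma adjusted p = 0.000847).

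HOXC13, a regulator of hair keratins, had 101 and 105 in H1299, against 153 and 206 in A549, and was lower in H1299 by −0.65 ± 0.12 log2 (SE; limma adjusted p = 0.0136). HOXB13, a gene of the prostate and hindgut, was called lower in H1299 (limma adjusted p = 0.0224), at 46.1 and 48.7 against 69.4 and 93.9 in A549. The last of these signals was its only one above the silent range, so no fold is given, and the call was lost with no replicate block (0.0678). HOXB9 (140 to 183 over the 4 arrays), HOXC9 (133 to 239), HOXC11 (89.8 to 128) and HOXD9 (144 to 168) were above the silent range on all arrays and were not called, with limma adjusted p of 0.422, 0.103, 0.205 and 0.321. HOXC12 (27.7 to 38.1), HOXD12 (23.3 to 27.6) and HOXD13 (44.4 to 66.1), a gene of the digits, were within the silent range and not called.

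The calls were then set in the order of the genes along each chromosome. In the HOXB cluster HOXB2, HOXB3 and HOXB4 were higher in H1299, followed by HOXB5 with no call, HOXB6 lower, HOXB7 higher, HOXB8 lower, HOXB9 with no call and HOXB13 lower. In the HOXC cluster HOXC6, HOXC8 and HOXC10 were higher and HOXC13, at the far end, was lower, with HOXC9 not called between them. In the HOXD cluster HOXD1 and HOXD4 were higher, HOXD4 within the silent range, and HOXD8, HOXD10 and HOXD11 were lower. HOXD9, between HOXD8 and HOXD10, was not called. By cluster the calls were 4 higher and 3 lower of 10 in HOXB, 3 and 1 of 9 in HOXC, and 2 and 3 of 8 in HOXD. The shares called were 70.0%, 44.4% and 62.5%, against 37.1% of all genes (17.6% higher and 19.5% lower), so that of HOXC was near the share of all genes.

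**Figure D2:**
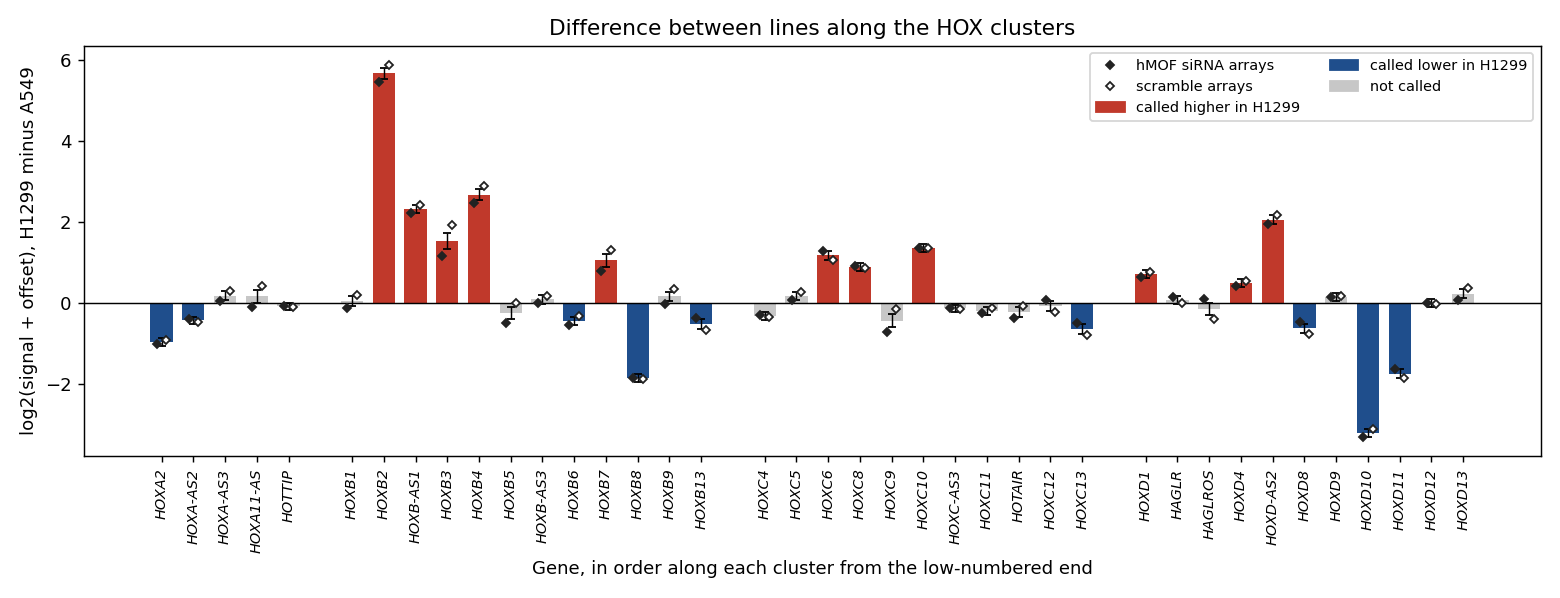
Difference of log2(signal + offset), H1299 minus A549, for the HOX genes and the noncoding genes of the clusters in cluster order. Bars are means over the siRNAs with standard errors from limma, diamonds are the hMOF siRNA arrays (filled) and scramble arrays (open), and red, blue and grey bars were called higher in H1299, called lower in H1299 and not called. HOXB2 stands highest and HOXD10 lowest, and the bars of HOXA2 and HOXD4 are differences among signals within the silent range.

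Noncoding genes of the clusters were read beside the HOX genes, 11 measured of 19 listed. Of the 11, 2 were called higher and 1 lower in H1299, 27.3%, which is below the 37.1% of all genes. HOXB-AS1, which lies between HOXB2 and HOXB3, had 298 and 340 in H1299, against 41.8 and 39.7 in A549, at least 3.60-fold higher in H1299 (limma adjusted p = 0.000293). HOXD-AS2, between HOXD4 and HOXD8, had 304 and 335 in H1299, against 56.9 and 52.7 in A549, at least 3.61-fold higher (limma adjusted p = 0.000381). Both were within the silent range in A549. HOXA-AS2, of the HOXA cluster, was lower in H1299, at 98.7 and 112 against 140 and 168 (−0.44 ± 0.10, SE; limma adjusted p = 0.0231). The other 8 were not called, among them HOTAIR, a HOXC transcript known to bind Polycomb proteins, with 5.38 to 15.6 on the 4 arrays.

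Start regions were read for the HOXD genes that were lower in H1299, HOXD11, HOXD10 and HOXD8, and for HOXD12, the neighbour that was within the silent range in both lines. They run from 250 bases before to 50 after the RefSeq start, on the plus strand of GRCh38.p14, 5′ to 3′. Capitals mark the E-box CACGTG and the HOX-PBX motif TGATNNAT on either strand.
HOXD11, chr2:176107030-176107329: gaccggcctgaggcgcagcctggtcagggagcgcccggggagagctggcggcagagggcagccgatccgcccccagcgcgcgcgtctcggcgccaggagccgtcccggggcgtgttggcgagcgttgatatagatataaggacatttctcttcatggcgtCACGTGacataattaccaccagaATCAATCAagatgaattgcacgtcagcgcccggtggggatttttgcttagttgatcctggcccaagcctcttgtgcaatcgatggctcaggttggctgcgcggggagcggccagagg
HOXD10, chr2:176116528-176116827: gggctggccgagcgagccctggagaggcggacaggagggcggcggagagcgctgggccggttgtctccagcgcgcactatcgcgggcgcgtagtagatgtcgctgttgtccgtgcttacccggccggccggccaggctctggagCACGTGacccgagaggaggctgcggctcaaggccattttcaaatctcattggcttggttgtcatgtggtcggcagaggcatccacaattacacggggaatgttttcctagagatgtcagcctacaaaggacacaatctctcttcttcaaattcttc
HOXD8, chr2:176129455-176129754: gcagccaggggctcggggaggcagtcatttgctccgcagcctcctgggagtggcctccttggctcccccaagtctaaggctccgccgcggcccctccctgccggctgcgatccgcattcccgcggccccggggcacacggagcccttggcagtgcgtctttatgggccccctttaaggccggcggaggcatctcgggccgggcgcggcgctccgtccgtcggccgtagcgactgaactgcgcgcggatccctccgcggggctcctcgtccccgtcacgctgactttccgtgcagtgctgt
HOXD12, chr2:176099545-176099844: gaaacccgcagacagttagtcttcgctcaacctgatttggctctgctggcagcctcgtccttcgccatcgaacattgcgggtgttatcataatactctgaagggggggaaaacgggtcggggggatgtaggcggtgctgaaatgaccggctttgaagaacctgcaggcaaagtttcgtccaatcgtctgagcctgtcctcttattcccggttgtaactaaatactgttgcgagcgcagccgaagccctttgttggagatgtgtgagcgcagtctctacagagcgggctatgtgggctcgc
HOXD11 holds the E-box at −90 and the HOX-PBX motif at −67 relative to the start, and HOXD10 holds the E-box at −106. HOXD8 and HOXD12 hold neither motif. In all, 11 of the 28 HOX genes matched the RefSeq promoter table, on 10 distinct windows since HOXC4 and HOXC5 share 1. Of these windows 4 held the E-box, those of HOXD1, HOXD10, HOXD11 and HOXD13, of which HOXD1 was higher in H1299 and HOXD13 was not called. The E-box occurred in 7.26% of 35116 windows of the same length. The HOX-PBX motif was in 3 of the 10 windows, those of HOXD11, HOXA2 and HOXB1, and in 7.40% of all windows. The motif TAATTA, a pair of homeodomain core sites, was in 1 of the 10, that of HOXD11, and in 4.84% of all windows. The CCAAT box and the TATA box TATAAA were searched as well. They were in 8 and 1 of the 10 windows, against 34.6% and 11.5% of all windows. These matches are letters in a window and were not tested for binding.

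The second comparison asked whether HOX genes differed with hMOF siRNA. None of the 28 was called higher or lower over both lines (limma, 0 in each direction), and the lowest adjusted p was 0.146, for HOXB8. The test called 0.617% of all genes higher and 1.27% lower, 1.89% together, or 122 and 251 genes, and with quantile normalization 311 and 404. With no offset, with an offset at the 40th percentile and with no replicate block it called 0 of all genes in each direction, so the HOX count of 0 says nothing there. In the main fit 0 of 28 is near the 1.89% share of all genes, so it says little there either. At an unadjusted p under 0.05, 5 HOX genes were higher and 0 lower with hMOF siRNA, HOXB7, HOXB8, HOXC6, HOXD8 and HOXD11, against 7.50% of all genes higher and 10.8% lower. No HOX gene was 2-fold in either line, where 2.34% of all genes were 2-fold in H1299 and 1.24% in A549. The standard error of a HOX gene's mean siRNA difference was at most 0.202 log2.

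HOXB8 had 227 with hMOF siRNA against 170 with scramble in H1299, and 895 against 701 in A549, differences of 0.37 and 0.34 log2 (mean 0.35 ± 0.09, SE). HOXB7 had 1940 against 1704 in H1299 and 1110 against 678 in A549, or 0.18 and 0.69, and was not called (limma adjusted p = 0.231). All 3 HOXB7 probe sets were higher with hMOF siRNA in A549, by 0.634 to 0.688 log2. HOXC6 was higher by 0.41 in H1299 and 0.18 in A549, also without a call (limma adjusted p = 0.252). HOXD8 had 136 with hMOF siRNA against 87.7 with scramble in H1299 and 202 against 171 in A549 (limma adjusted p = 0.209), and HOXD11 differed by 0.44 in H1299, within the silent range, and by 0.22 in A549 (0.21). The HOX gene with the largest single ratio was HOXB3, at 1055 with hMOF siRNA against 1861 with scramble in H1299, −0.80 log2, and 461 against 472 in A549, −0.03. Its other probe set read 163 against 152 in H1299, so the probe sets of the gene disagree on that ratio.

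HOXB6 showed the same kind of disagreement in both lines. The probe set used read 88.2 with hMOF siRNA against 111 with scramble in H1299 and 144 against 148 in A549. The other read 154 against 92.4 in H1299 and 141 against 71.4 in A549, differences of 0.596 and 0.76 log2. HOXC10 and HOXC8 had like differences in both lines, 0.22 in H1299 and 0.20 in A549 for HOXC10, and 0.23 and 0.19 for HOXC8, neither of them called. HOXB5 and HOXC9 differed in sign between the lines, at −0.15 and 0.36 for HOXB5 and −0.22 and 0.36 for HOXC9. Whether a ratio differed between lines could not be tested, since such a model leaves no residual degrees of freedom.

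As a list, the HOX genes had a median siRNA difference of −0.039 in H1299 and 0.098 in A549, against 0.007 and 0.009 for all genes. In H1299 13 of the 28 were above 0 and in A549 21, and 12 were above 0 in both and 6 below 0 in both. Of all genes 51.3% were above 0 in H1299, 51.9% in A549, 33.3% in both and 30.0% below 0 in both. The HOXB cluster had 2 of 10 genes above 0 in H1299 and 7 in A549, and the HOXD cluster 5 and 7 of 8. These are descriptions of 4 arrays, without a test.

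**Figure D3:**
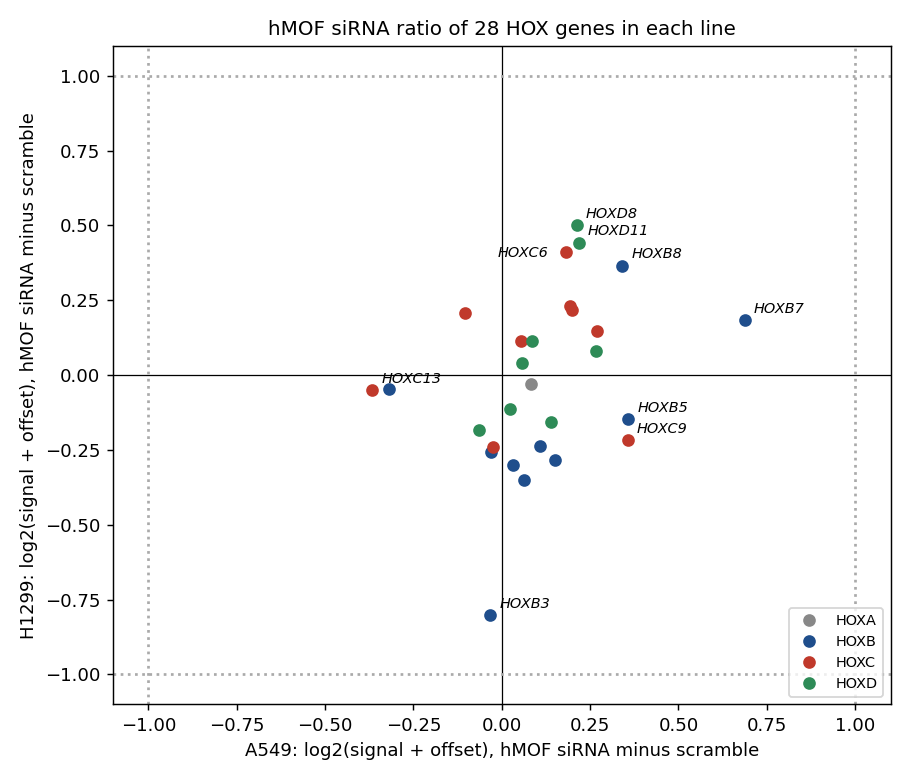
Difference of log2(signal + offset), hMOF siRNA minus scramble, of each of the 28 HOX genes in A549 (horizontal) and H1299 (vertical), coloured by cluster, with 1 array per group. Dotted lines mark 2-fold; all 28 genes lie inside them, with HOXB3 lowest in H1299 and HOXB7 highest in A549.

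Genes that work with the HOX proteins or set the state of their clusters were compared between the lines from lists of named members. TALE homeodomain proteins (PBX, MEIS and PKNOX) bind DNA together with HOX proteins, and 5 of the 8 measured were higher and 1 was lower in H1299, against 17.6% of all genes higher and 19.5% lower. PBX3 had 1674 and 2381 in H1299, against 532 and 656 in A549, a difference of 1.71 ± 0.11 log2 (SE; limma adjusted p = 0.000632). PBX2 was higher by 1.19 and MEIS2 by 0.77, and PBX4 and PKNOX1 by 0.38 and 0.44, whereas MEIS3 was lower by −1.03. MEIS1 was not called (limma adjusted p = 0.99).

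Of the Polycomb group, 14 of 24 measured genes were higher and 4 lower in H1299, against 17.6% of all genes higher and 19.5% lower. EZH2, the H3 methyltransferase of the complex PRC2, had 1352 and 1108 in H1299, against 495 and 486 in A549 (1.27 ± 0.11, SE; limma adjusted p = 0.00153), and its partners PHF1, PHF19 and MTF2 were higher by 1.58, 1.64 and 1.18. SUZ12, another PRC2 core subunit, was lower in H1299, at 994 and 1400 against 1581 and 2512 (−0.74 ± 0.10, SE; limma adjusted p = 0.0058). The CBX subunits of PRC1 parted: CBX7 had 327 and 546 in H1299, against 76.2 and 109 in A549 (limma adjusted p = 0.000601). The 76.2 lay within the silent range. CBX2 had 144 and 121 in H1299, against 763 and 583 in A549 (limma adjusted p = 0.000333). PCGF5 was lower by −1.64. Of the Trithorax and COMPASS list, 4 of 15 were higher and 1 lower, 33.3% called, near the 37.1% of all genes. KMT2A, the MLL methyltransferase of HOX loci, was higher by 0.74 on the brightest of its 11 probe sets. DOT1L, the H3 methyltransferase recruited by MLL fusions, was at least 3.38-fold higher in H1299 (limma adjusted p = 0.000722). Its brightest of 3 probe sets had 391 and 229 in H1299, against 50.8 and 38.1 in A549, both within the silent range. The dimmer probe sets of the genes in these lists are not reported here.

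Retinoic acid is an upstream signal of low-numbered HOX genes. Of 17 measured genes of its pathway and of other upstream regulators, 2 were higher and 6 lower in H1299, 47.1% called, against 17.6% of all genes higher, 19.5% lower and 37.1% together. ALDH1A1, which makes retinoic acid, had 19.3 and 20.1 in H1299, against 13487 and 15981 in A549, at least 174-fold lower (limma adjusted p = 5.4e-05). CYP26B1, which degrades it, had 20.1 and 18.5 in H1299, against 664 and 585 in A549, at least 7.37-fold lower in H1299, and DHRS3, a retinal reductase, was lower by −3.11. The receptors RARB, RXRA and RARA were lower by −2.04, −1.43 and −0.78, RXRB was higher by 0.52 and RARG was not called. The parts of these genes in the HOX differences were not tested, and everything that differs between the 2 lines cannot be told apart with 1 line of each kind.

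**Figure D4:**
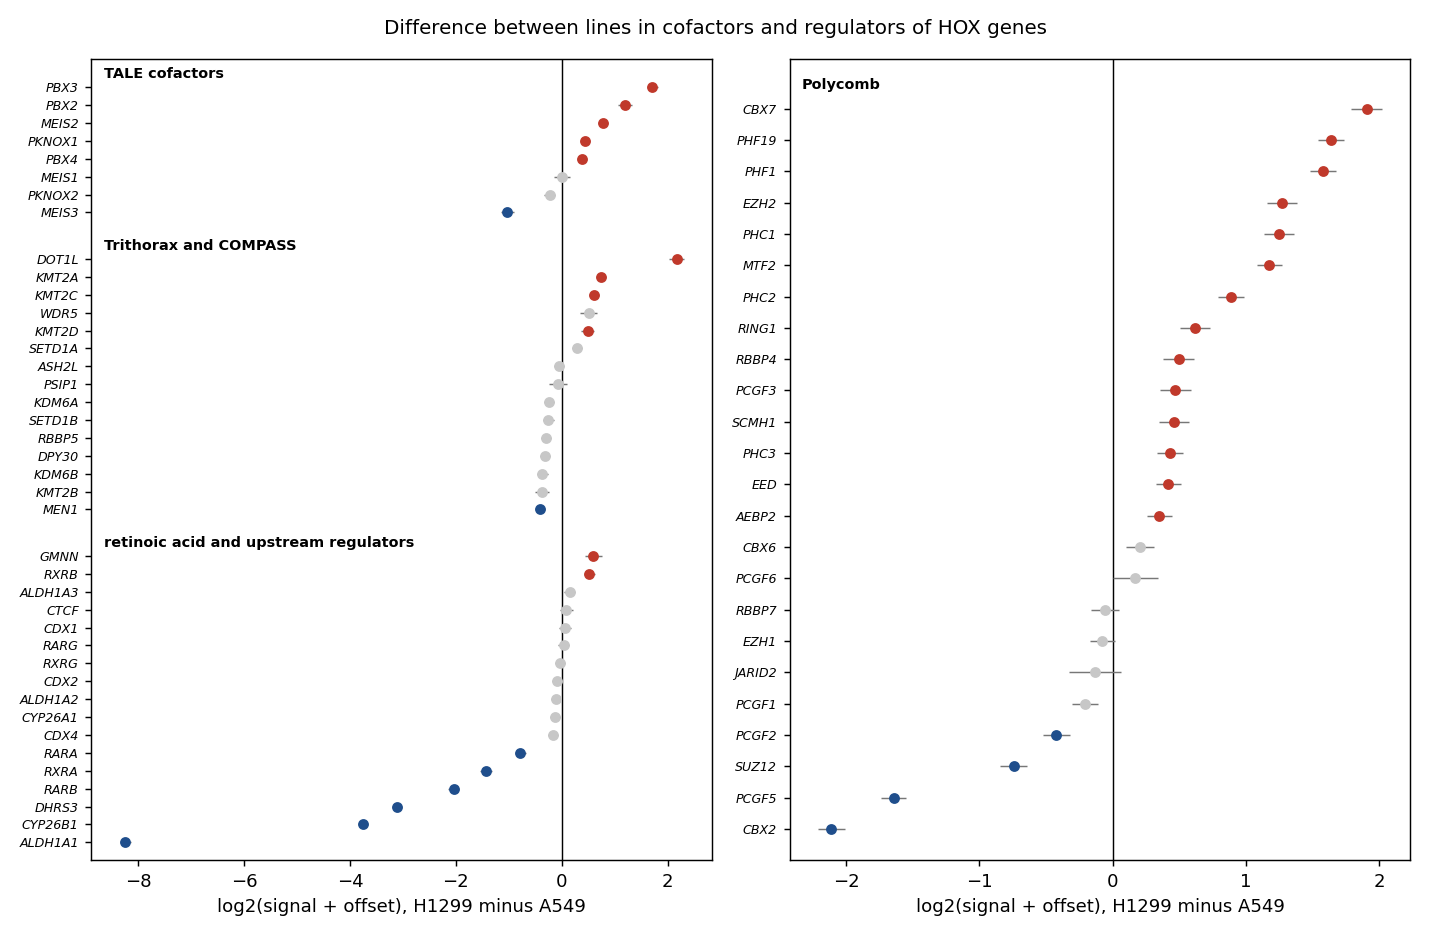
Difference of log2(signal + offset), H1299 minus A549, of the TALE, Trithorax and COMPASS, retinoic acid and upstream, and Polycomb genes measured, each as a point with its standard error from limma over the 4 arrays. Red points were called higher in H1299, blue lower and grey not called, and the panels have different horizontal ranges. ALDH1A1 stands lowest on the left, and CBX7 and CBX2 at the ends on the right.

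None of the genes in these lists was called for the siRNA (limma, 0 of 8, 0 of 24, 0 of 15 and 0 of 17), against 1.89% of all genes. In lists of this size a count of 0 is near that share and says little about the genes. At an unadjusted p under 0.05, 3 of the 24 Polycomb genes were higher and 6 lower with hMOF siRNA, against 7.50% of all genes higher and 10.8% lower. JARID2, a PRC2 partner, was the only one that was 2-fold in a line on the log2(signal + 29.06) scale, at 813 with hMOF siRNA against 351 with scramble in A549, and 564 against 419 in H1299 (limma adjusted p = 0.133). Of 18 genes that flank the clusters, 3 were higher and 3 lower in H1299, 33.3% called, near the 37.1% of all genes. LNPK, beside the HOXD cluster, had 356 and 450 in H1299, against 128 and 201 in A549 (limma adjusted p = 0.00179). TTLL6, which lies beyond HOXB13, was the only flanking gene 2-fold with the siRNA on the log2(signal + 29.06) scale, at 19.9 with hMOF siRNA against 527 with scramble in H1299 and 91.3 against 145 in A549. It was not called (limma adjusted p = 0.233). SKAP2, beside the HOXA cluster, came close to that size, at 338 with hMOF siRNA against 676 with scramble in H1299, −0.94 on the same scale, and was not called (limma adjusted p = 0.149).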

How the data were processed

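Total RNA of the 4 cultures was turned into biotinylated cRNA from 6 ug and hybridised to Affymetrix arrays of 54675 probe sets, per the labels. The deposited values are linear signal intensities that the authors made with MAS5, per the submitters' processing notes. Neither the MAS5 version, its scaling target nor a genome build is given in the sources used here. Groups were taken from each array's source name. The treatment tag contradicts it on 2 of the 4 arrays and was not used.

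The platform annotation gave 1 gene to 41091 probe sets, several to 1801 and none to 11721 that were not among the 62 controls. Symbols were checked by gene identifier in a RefSeq table of GRCh38.p14, which changed 0 and lacked 54 probe sets' identifiers. Signals plus 29.06, the 20th percentile of all signals, were taken to log2, with no further normalization. All arrays entered 1 model with line and siRNA terms in limma 3.58.1 (lmFit, then eBayes; R 4.3.3), leaving 1 residual degree of freedom, to which 3.63 prior ones were added. The p-values were adjusted by Benjamini-Hochberg over 19775 genes. Within a line, ratios were read at a 2-fold size without a test. The fit was tested on simulated data.

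The members, lists and tests were chosen with earlier results of these data known. Every HOX gene could be named, and of the other lists mainly members past a test or at 2-fold. MEIS1, RARG, NKX2-1, HOTAIR and the siRNA ratio of SKAP2 were named after their values were seen. Alternatives were no offset, an offset at the 40th percentile (56.5), a signal filter at the 50th percentile, quantile normalization, median centring, averaged probe sets, no _x_at probe sets, eBayes with trend, no block, and each line or siRNA alone. Sequences are RefSeq's, from GRCh38.p14. Precision is limited by the number of arrays. Figures were drawn with matplotlib 3.10.9.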

Additional observations from a re-analysis of the deposited data

How the results depend on the processing

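The count of HOX genes called for hMOF siRNA was 0 higher and 0 lower under each of the 9 refitted alternatives and 0 at 2-fold in each line alone. Among 28 genes a count of 0 is near the share of all genes called, 1.89% in the main fit, so its sameness says little. The lowest adjusted p of a HOX gene ran from 0.0966 with quantile normalization to 1.0 with no replicate block, and 0 to 7 HOX genes had an unadjusted p under 0.05. No paired analysis beyond the line and siRNA terms was possible because each group has 1 array. For the lines, 9 HOX genes were higher and 8 lower in H1299. With no replicate block the count lower was 5, since HOXB6, HOXB13 and HOXD8 missed the threshold (0.0731, 0.0678 and 0.107), as did HOXB7 among those higher (0.0552). At 2-fold within 1 siRNA, 5 to 6 were higher and 3 to 4 lower, with hMOF siRNA giving 5 and 4 and scramble 6 and 3. Averaging probe sets ended the calls of HOXB6 and HOXD4 and added HOXB9 (0.0257) and HOXC4 (0.0324), and an offset at the 40th percentile added HOXC4 (0.0447). Of 499 single values compared, 486 kept their side of the threshold, 3 gained a call and 10 lost one, and 0 called values turned sign. Of 337 uncalled ones, 5 turned sign. For hMOF siRNA no uncalled value could gain a call with no offset, an offset at the 40th percentile or no replicate block. There the fit called 0 of all genes, so the values that stayed uncalled say nothing about stability. The filter left 21 HOX genes, 8 higher and 6 lower in H1299. Of the 12825 genes it left in all, 3225 were higher and 3497 lower. The share of all genes called was thus larger with the filter than the 37.1% of the main fit. The median siRNA difference of HOX genes ran from −0.064 to 0.039 in H1299, turning sign with the filter and with averaged probe sets, and from 0.081 to 0.183 in A549. Over all genes, the siRNA calls were 122 higher and 251 lower, 0 and 0 with no offset, with an offset at the 40th percentile or with no replicate block, 311 and 404 with quantile normalization, and 81 and 149 with averaged probe sets. The line calls over all genes were 3483 higher and 3860 lower in H1299, and 2191 and 2531 with no replicate block. The cause of these shifts was not tested. Signals within the silent range limit what can be said of the 5 HOX genes that lay there on all arrays.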
